A study of Mus musculus with 6 samples.

Results

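The RGS genes encode regulators of G-protein signalling, and 8 of the 54146 genes in the count tables are described here: Rgs2, Rgs3, Rgs10, Rgs12, Rgs14, Rgs16, Rgs19 and Rgs20. They were listed by gene symbol because Rgs16 was much higher in Ki-67 knockout cells than in wild-type cells. The differences between knockout and wild type are therefore a description for all 8 genes, without p-values, and counts of calls in that comparison support nothing about them. The RNA came from 4T1 cells, an established mammary carcinoma line of BALB/c mice. Wild-type (WT) cells and 2 clones with the genotype Mki67-/-, called KO clone 1 and KO clone 2, were each measured in 2 libraries of total RNA depleted of ribosomal RNA. Each knockout group is a single clone, and the labels do not say whether the WT cells were cloned or whether the replicate libraries stem from independent cultures. A difference between a clone and WT thus cannot be told apart from a difference between cell lines, and the spread within a group may be technical.

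RGS proteins speed up the hydrolysis of GTP by the alpha subunits of heterotrimeric G proteins and so shorten the signal of G-protein-coupled receptors. They fall into subfamilies by sequence. Rgs2, Rgs3 and Rgs16 belong to the R4 subfamily, Rgs19 and Rgs20 to the RZ subfamily, and Rgs10, Rgs12 and Rgs14 to the R12 subfamily, some of whose members also bind Ras-type GTPases. Several R4 genes are known to be induced by the signals that their products then dampen.

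Between 10428970 and 22658499 reads per library were assigned to genes, and 13755 genes had enough reads to be tested, all 8 RGS genes among them. Levels are given as CPM, the read count of a gene per megaread of scaled library size. Mki67 itself had 692 ± 63.0 CPM in WT, 94.2 ± 11.8 CPM in clone 1 and 46.3 ± 9.07 CPM in clone 2 (SD, n = 2 libraries here and below). All 7 epithelial markers listed (keratins, Epcam and Cdh1) were read in every library, with a summed level of 3330 to 3774 CPM in WT and 5328 to 5711 CPM in the clones.

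Rgs16, an R4 protein that acts on the Gi and Gq classes of alpha subunit, was the member with the largest difference. It lies on the plus strand of chromosome 1 (ENSMUSG00000026475; GRCm38, 153740349 to 153745468). Its promoter is shown beside that of Rgs2, another R4 gene on the same chromosome, because the pair differed from WT in opposite directions. Both windows run from 250 bases before to 50 bases after the RefSeq start (GRCm38.p6), 5′ to 3′ on the strand of the gene, and capitals mark the GC box core GGGCGG or its reverse complement, which occurred 2 times, overlapping, in Rgs16 and 4 times in Rgs2. The Rgs16 window is chr1:153740103-153740402 on the plus strand and the Rgs2 window is chr1:144004100-144004399 on the minus strand.
Rgs16: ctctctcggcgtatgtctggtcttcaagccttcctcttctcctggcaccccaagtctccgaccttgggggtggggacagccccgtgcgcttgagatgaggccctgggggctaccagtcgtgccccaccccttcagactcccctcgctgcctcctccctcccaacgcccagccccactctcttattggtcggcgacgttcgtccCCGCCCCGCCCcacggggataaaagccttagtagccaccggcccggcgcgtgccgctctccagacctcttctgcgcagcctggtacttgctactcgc
Rgs2: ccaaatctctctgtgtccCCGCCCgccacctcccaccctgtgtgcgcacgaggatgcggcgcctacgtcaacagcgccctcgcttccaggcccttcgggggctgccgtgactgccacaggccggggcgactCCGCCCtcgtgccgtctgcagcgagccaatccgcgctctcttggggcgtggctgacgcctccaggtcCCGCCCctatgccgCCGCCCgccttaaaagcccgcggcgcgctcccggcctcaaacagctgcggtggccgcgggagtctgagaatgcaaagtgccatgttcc

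The level of Rgs16 was 6.21 and 5.43 CPM in WT, 25.9 and 42.5 CPM in clone 1, and 204 and 187 CPM in clone 2. Every clone 1 library lay above both WT libraries, and both clone 2 libraries lay above clone 1. Behind these values stand 63 and 92 WT reads, 587 and 946 from clone 1, and 3472 and 4333 from clone 2. Group means were 5.82 ± 0.552, 34.2 ± 11.8 and 196 ± 12.3 CPM, so clone 1 was 5.87 times and clone 2 was 33.6 times the WT level. The fitted log2 fold changes against WT were 2.56 (SE 0.225) in clone 1 and 5.08 (SE 0.240) in clone 2. Among the 13755 genes ordered by log2 fold change, Rgs16 stood at place 142 in clone 1 and 21 in clone 2. These are the values for which the gene was chosen.

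Rgs2, which acts mainly on Gq, was lower in the clones. It lies on the minus strand of chromosome 1 (ENSMUSG00000026360; 143999338 to 144004161). It had 1.48 and 1.59 CPM in WT, 0.485 and 0.899 CPM in clone 1, and 0.236 and 0.432 CPM in clone 2. All 4 clone libraries lay below both WT libraries, but these levels rest on only 4 to 27 reads. The log2 fold changes were -1.16 (SE 0.387) in clone 1 and -2.14 (SE 0.449) in clone 2.

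Rgs3, an R4 protein with several isoforms, had a plus-strand gene on chromosome 4 (ENSMUSG00000059810; 62559847 to 62704001). Its levels were 13.4 and 15.5 CPM in WT, 18.1 and 15.8 CPM in clone 1, and 13.6 and 9.97 CPM in clone 2. The clone libraries spread to both sides of WT, with log2 fold changes of 0.23 (SE 0.171) and -0.30 (SE 0.174). The 3 R4 genes therefore did not share a direction.

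Rgs19, also known as GAIP, acts on the Gi class and was the most abundant of the 8 genes per kb in WT. It lies on the minus strand of chromosome 2 (ENSMUSG00000002458; 181688419 to 181693977). It had 40.4 and 36.1 CPM in WT, 81.6 and 80.2 CPM in clone 1, and 101 and 90.1 CPM in clone 2. Both clones lay well above WT, at 2.11 and 2.50 times its level, with log2 fold changes of 1.08 (SE 0.120) and 1.32 (SE 0.120).

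Rgs20, the other RZ gene and a regulator of Gz, is on the minus strand of chromosome 1 (ENSMUSG00000002459; 4909576 to 5070285) and was close to the limit of detection. It had 0.690 and 0.768 CPM in WT, 0.397 and 0.135 CPM in clone 1, and 0.236 and 0.389 CPM in clone 2. The clone values lay below WT, but they came from 3 to 9 reads per library, and the log2 fold changes of -1.44 (SE 0.559) and -1.18 (SE 0.552) are imprecise. Noncoding genes on the same strand overlap Rgs20, and reads in the shared stretches may not be counted for it.

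Of the R12 genes, Rgs10 and Rgs14 lay below WT in both clones, while Rgs12, which was not called in either clone, did not. Rgs10, a small protein made of little more than an RGS domain, is on the minus strand of chromosome 7 (ENSMUSG00000030844; 128373621 to 128418758). It had 12.4 and 12.5 CPM in WT, 7.67 and 9.31 CPM in clone 1, and 7.95 and 8.55 CPM in clone 2. The clones lay below WT without overlap, with log2 fold changes of -0.55 (SE 0.162) and -0.59 (SE 0.163).

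Rgs14, which carries Ras-binding and GoLoco motifs beside its RGS domain, is on the plus strand of chromosome 13 (ENSMUSG00000052087; 55369732 to 55384687). It had 1.38 and 1.59 CPM in WT, 0.573 and 0.809 CPM in clone 1, and 0.766 and 0.561 CPM in clone 2. The clones had less than the WT libraries at 13 to 18 reads each, with log2 fold changes of -1.12 (SE 0.358) and -1.20 (SE 0.369).

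Rgs12, a large scaffold relative of Rgs14, is on the plus strand of chromosome 5 (ENSMUSG00000029101; 34949445 to 35039644). It had 25.6 and 35.7 CPM in WT, 40.9 and 35.9 CPM in clone 1, and 40.2 and 36.4 CPM in clone 2. The lowest clone library was barely above the higher WT library, and the WT libraries differed from each other by more than the clones did. The log2 fold changes were 0.32 (SE 0.154) and 0.31 (SE 0.155).

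**Figure D1:**
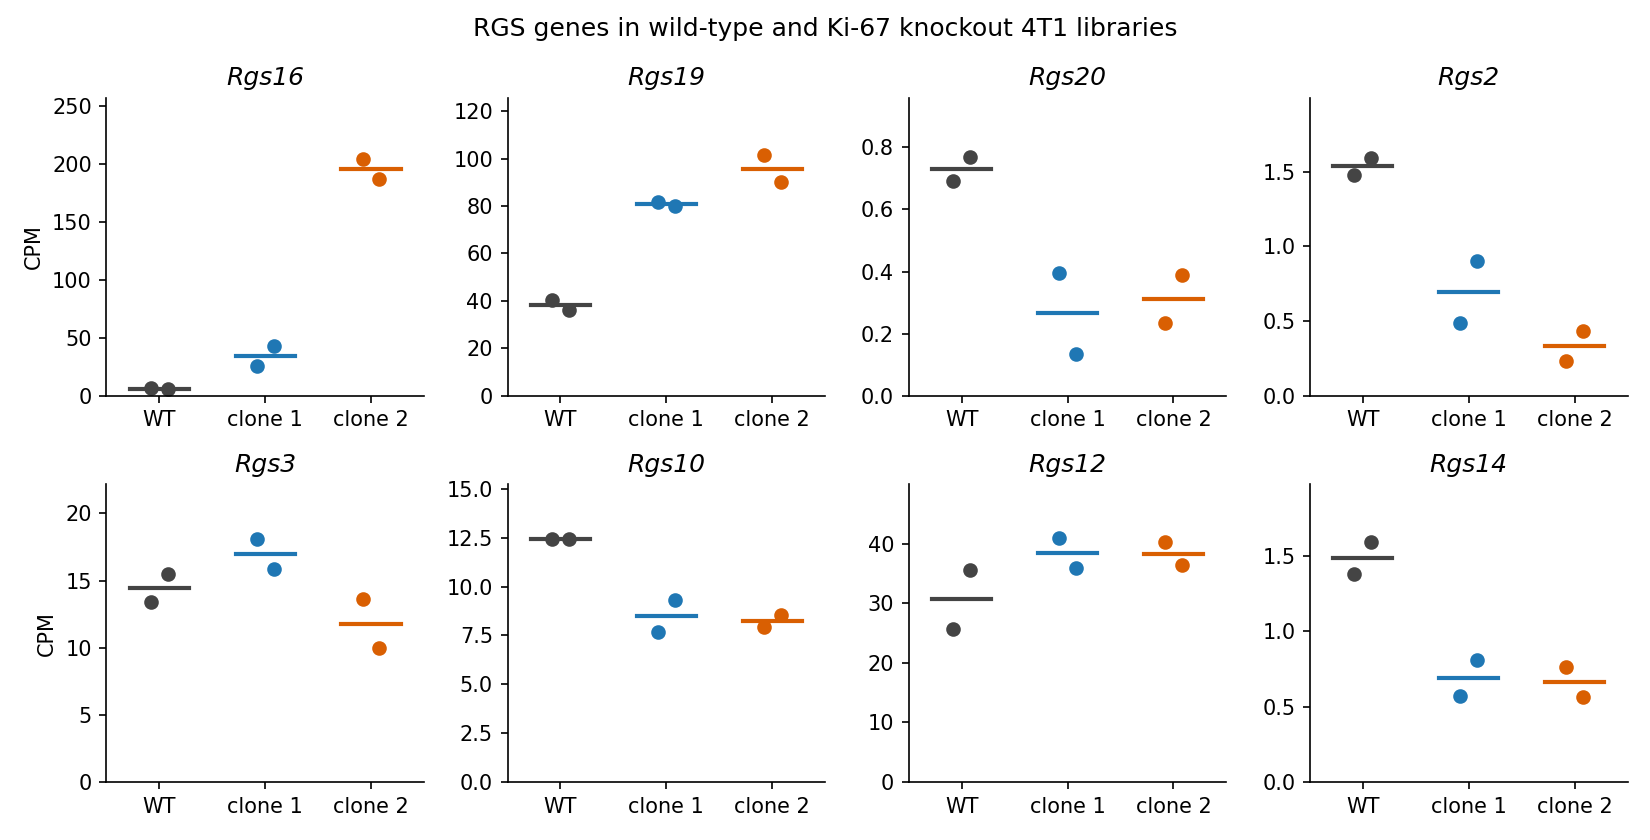
Level of each RGS gene in CPM (vertical axes from 0, with a scale of its own per gene) in the 2 libraries of each group (points) with the group mean (line). Rgs16 climbs from about 6 CPM in WT to 187 and 204 CPM in clone 2, Rgs19 lies between 80.2 and 101 CPM in the clones, and Rgs2, Rgs10, Rgs14 and Rgs20 lie lower in both clones.

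In all, 3 of the 8 genes had every clone library above WT (Rgs12, Rgs16 and Rgs19), 4 had every clone library below WT (Rgs2, Rgs10, Rgs14 and Rgs20), and Rgs3 overlapped. In the same comparison 27.7% of all tested genes lay above WT in every clone library and 30.1% below, 57.8% together. In the fit over all genes (edgeR's quasi-likelihood test, adjusted p under 0.05), which uses the values behind the choice of the genes and is no test of them, 6 of the 8 were called in clone 1, where 50.4% of all genes were, and 5 of the 8 in clone 2, where 53.1% were. Rgs16 and Rgs19 were the genes called as higher in each clone, against 24.5% and 25.2% of all genes. Rgs2, Rgs10 and Rgs14 were called as lower in each clone and Rgs20 in clone 1 alone, against 26.0% and 27.9% of all genes. For the mean of both clones 6 were called, 2 higher and 4 lower, where 55.8% of all genes were, 26.5% higher and 29.3% lower. For Rgs20 the log2 difference between the clones was 0.27 with a 95% interval of -1.05 to 1.59. As the list was chosen on this contrast and both comparisons share the WT libraries, nothing is read from these counts. The median log2 fold change of the 8 genes was -0.16 in clone 1 and -0.45 in clone 2, beside -0.01 and -0.02 over all genes tested. In clone 1 the number called fell from 6 to 3 with DESeq2, and likewise to 3 without clone 1 replicate 1.

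**Figure D2:**
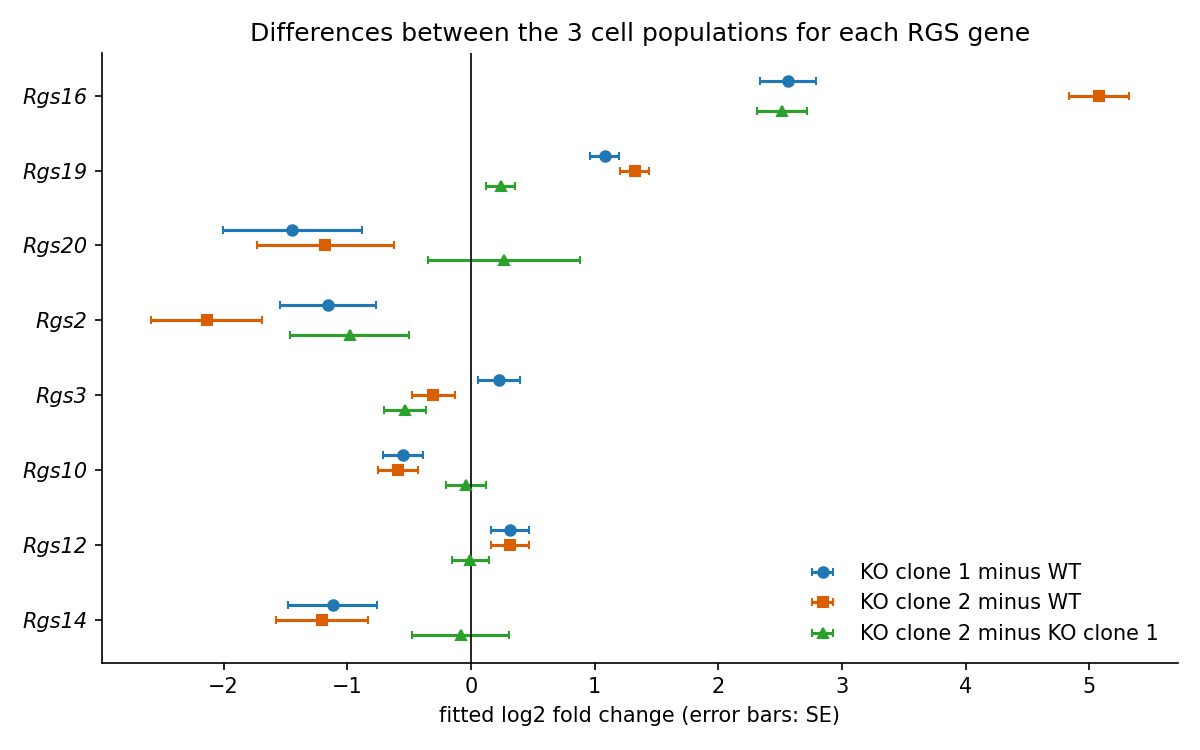
Fitted log2 fold change of each RGS gene (horizontal axis, error bars SE) for clone 1 minus WT, clone 2 minus WT and clone 2 minus clone 1. Rgs16 stands apart in all 3, at 2.56, 5.08 and 2.52, while the other genes lie between -2.14 and 1.32.

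Between the 2 knockout clones, Rgs16 was higher in clone 2, by 5.72 times in CPM and by 2.52 on the log2 scale (SE 0.203). As its clone 2 level made up most of the rise for which it was chosen, this too is a description. The log2 difference of Rgs16 ran from 2.20 to 2.92 over 11 alternatives in processing or in the libraries used. Both ends came from fits with 1 library left out. The clone 1 libraries differed from each other, at 25.9 and 42.5 CPM, but both lay far below the clone 2 libraries. For the other 7 genes, which were not chosen for their own levels, the difference between the clones was tested. Rgs3 was lower in clone 2 by -0.53 on the log2 scale (SE 0.169, edgeR adjusted p = 0.0400). That call was lost with DESeq2 (-0.52, adjusted p = 0.0600) and on leaving out any 1 of the 4 clone libraries, where edgeR's adjusted p was 0.235 or 0.0933 when the first or the other library of clone 1 was dropped and 0.0606 or 0.252 when those of clone 2 were. Over its alternatives the adjusted p of Rgs3 ran from 0.0192 to 0.252.

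The remaining 6 genes were not called between the clones. The 95% intervals of the log2 difference, clone 2 minus clone 1, were -2.01 to 0.06 for Rgs2, -0.39 to 0.31 for Rgs10, -0.33 to 0.32 for Rgs12, -0.92 to 0.75 for Rgs14, -0.01 to 0.49 for Rgs19 and -1.05 to 1.59 for Rgs20. A difference of 2-fold between the clones was therefore outside the interval for Rgs10, Rgs12, Rgs14 and Rgs19 but inside it for Rgs2 and Rgs20. Of the 8 genes, 2 were thus called (Rgs16 among them) beside 22.0% of all tested genes. Libraries of the 2 clones did not overlap for 4 of the 8 genes (Rgs16 and Rgs19 higher, Rgs2 and Rgs3 lower in clone 2), against 68.2% of all tested genes.

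To compare the genes with each other, CPM were divided by the summed length of each gene's exons in kb, which understates genes with long alternative exons such as Rgs3 and Rgs12. In WT the order was Rgs19 (17.2 ± 1.36 CPM per kb), Rgs10 (7.27 ± 0.0135), Rgs12 (3.61 ± 0.835), Rgs16 (2.49 ± 0.236), Rgs3 (1.34 ± 0.135), Rgs2 (0.424 ± 0.0224), Rgs14 (0.351 ± 0.0356) and Rgs20 (0.172 ± 0.0129). No neighbours in this order overlapped between libraries. In clone 1 Rgs16 followed Rgs19, at 14.6 ± 5.04 against 36.3 ± 0.465 CPM per kb, and Rgs10 overlapped with Rgs12 and Rgs2 with Rgs14. In clone 2 Rgs16 was first at 83.7 ± 5.26 CPM per kb and Rgs19 second at 42.9 ± 3.56. There Rgs10 overlapped with Rgs12, and Rgs2 with Rgs20.

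The summed level of the 8 genes was 32.8 ± 0.545 CPM per kb in WT, 62.4 ± 4.76 in clone 1 and 137 ± 9.10 in clone 2. Rgs16 made up 7.58% ± 0.593 of this pool in WT, 23.2% ± 6.30 in clone 1 and 60.9% ± 0.202 in clone 2. Rgs19 made up 52.3% ± 3.28, 58.4% ± 5.20 and 31.2% ± 0.520, and Rgs10 made up 22.2% ± 0.409, 7.94% ± 0.479 and 3.52% ± 0.413. Without Rgs16 the pool was 30.3 ± 0.309, 47.7 ± 0.274 and 53.7 ± 3.83 CPM per kb. Of this, Rgs19 alone held 17.2 ± 1.36, 36.3 ± 0.465 and 42.9 ± 3.56 CPM per kb. In bulk RNA a higher level in each cell and a higher share of expressing cells cannot be told apart.

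**Figure D3:**
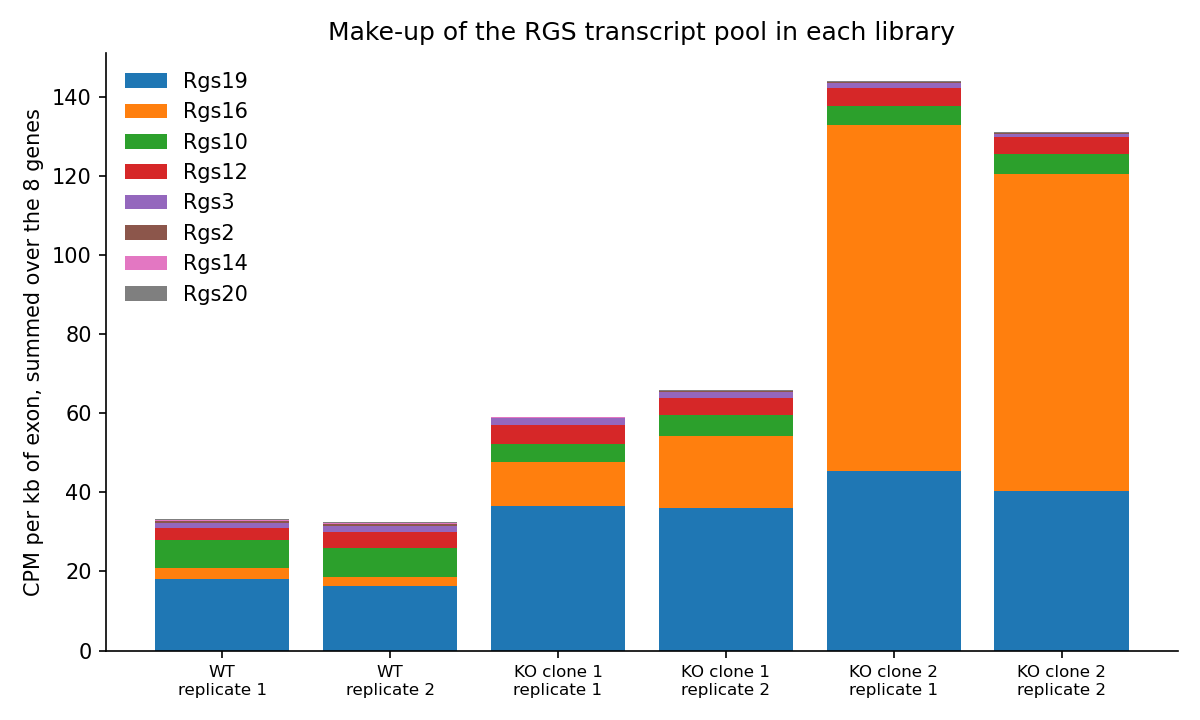
Summed level of the 8 RGS genes in each library (vertical axis, CPM per kb of exon), with one colour per gene. Rgs19 is the largest block in WT and clone 1, and Rgs16 takes 60.9% of the pool in clone 2.

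Of 13 other Rgs genes, 8 had at least 1 read and only Rgs11 and Rgs22 had enough to be tested. Rgs11, an R7 protein that works as a dimer with the beta subunit Gnb5, had 4.98 ± 0.215 CPM in WT, 5.32 ± 0.0198 in clone 1 and 3.22 ± 0.390 in clone 2. It fell in clone 2 against WT (log2 fold change -0.63, edgeR adjusted p = 0.0187) and against clone 1 (-0.71, edgeR adjusted p = 0.0189), and was not called in clone 1 against WT (0.09, edgeR adjusted p = 0.727). Rgs22 was not called for the mean of both clones, with 8 to 17 reads per library. Rgs8, like Rgs16 an R4 gene, had 0 and 1 read in the WT libraries, 0 and 2 reads in those of clone 1, and 7 and 2 reads in those of clone 2. Rgs1, Rgs13, Rgs17, Rgs18 and Rgs21 had no read in any library, which at a floor of 3 counts allows at most 0.130 to 0.296 CPM per library.

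The genes around the RGS proteins were taken from lists of their families and compared between WT and the mean of the knockout clones, where 55.8% of all genes were called with a median log2 fold change of -0.02. Of 12 tested genes for other proteins with an RGS domain, 6 rose and 3 fell (median 0.29). Axin1, the scaffold of beta-catenin destruction, rose from 90.5 ± 3.49 CPM to 180 ± 7.68 and 154 ± 10.5 in clones 1 and 2. The receptor kinases Grk2 (log2 fold change 0.76) and Grk6 (0.89), which mark active receptors for arrestin, rose as well. Grk6 was at 0.65 in clone 1 and 1.13 in clone 2, a difference of 0.48 (edgeR adjusted p = 0.0117). Snx13, an endosomal sorting nexin, fell by 0.81 on the log2 scale. Its values were -0.46 in clone 1 and -1.16 in clone 2, a difference of -0.70 (edgeR adjusted p = 0.00204).

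Of 10 tested alpha subunit genes, 4 rose, 1 fell and 5 were not called (median 0.16), and without clone 1 replicate 1 the number called was 3 in place of 5. Gnai2, a Gi subunit of the class on which Rgs16 and Rgs19 act, rose from 415 ± 54.2 CPM to 586 ± 9.44 and 672 ± 27.0 (0.59, edgeR adjusted p = 0.000316). Gnas, the stimulatory subunit, which is not a usual RGS substrate, rose from 546 ± 23.9 to 949 ± 8.76 and 1042 ± 4.43 CPM. Gna13 rose by 0.34 for the mean of both clones, called in clone 1 (0.43) and not in clone 2 (0.24, edgeR adjusted p = 0.0924). Gnaz, the substrate of Rgs20, fell (-2.53, edgeR adjusted p = 0.000118). Its levels were 1.38 ± 0.281 CPM in WT, 0.667 ± 0.0536 CPM in clone 1 and 0.0726 ± 0.0194 CPM in clone 2. These rest on 16 and 20 reads in WT, and on 1 and 2 reads in clone 2, below a floor of 3 counts.

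Of 10 tested beta and gamma subunit genes, 1 rose and 4 fell (median -0.48). Gnb5, the beta subunit that pairs with R7 proteins such as Rgs11, fell from 25.0 ± 0.826 CPM to 12.3 ± 1.24 and 11.3 ± 0.0281 (-1.09, edgeR adjusted p = 4.84e-06). Gnb4 fell from 8.82 ± 0.474 to 1.34 ± 0.0817 and 0.811 ± 0.353 CPM. Gng2 (-3.12) fell in both clones, by more in clone 1 (-4.42) than in clone 2 (-1.82). The clones differed by 2.596 for Gng2 (edgeR adjusted p = 0.00901). Its values rest on 22 and 33 reads in WT, 3 and 1 reads in clone 1, and 9 and 14 reads in clone 2. Gng11 (-0.75) fell in clone 2 (-1.26) and was not called in clone 1 (-0.25, edgeR adjusted p = 0.198), and the clones differed by -1.005 (edgeR adjusted p = 0.00111). Among 11 tested partners of RGS and G proteins, 5 rose and 4 fell (median 0.39). Ric8a, a chaperone of alpha subunits (0.83), and Arrb2, the arrestin beta-arrestin 2 (0.75), rose. Their relatives Ric8b (-0.59, edgeR adjusted p = 0.000748) and Arrb1 (-0.77, edgeR adjusted p = 0.00349) fell. Arrb1 was called in clone 1 (-1.13) and not in clone 2 (-0.42), a difference of 0.71 (edgeR adjusted p = 0.0365). Gpsm1, a GoLoco protein that holds Gi in its GDP form, rose (1.10). Gpsm1 was at 0.66 in clone 1 and 1.55 in clone 2, a difference of 0.88 (edgeR adjusted p = 0.00259). Gpsm3, another GoLoco protein, fell by 1.95 on the log2 scale.

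Of 6 tested adenylyl cyclase and phospholipase C beta genes, which are effectors of the G proteins, 3 rose and 1 fell (median 0.07). Adcy3 fell, with 20.0 ± 6.07 CPM in WT, 0.512 ± 0.0243 CPM in clone 1 and 2.05 ± 0.342 CPM in clone 2 (-4.29, edgeR adjusted p = 2.07e-09). Plcb4 (0.46), Plcb3 (0.28) and Adcy7 (0.26, edgeR adjusted p = 0.0499) rose by small amounts for the mean of both clones. Adcy7 was not called in clone 1 (-0.04, edgeR adjusted p = 0.800) and rose in clone 2 (0.55, edgeR adjusted p = 0.00152), and the clones differed by 0.59 (edgeR adjusted p = 0.0041). Plcb3 and Plcb4 were called in clone 1 (0.42 and 0.57) and not in clone 2 (0.14 and 0.36), without a called difference between the clones. In this list 2 in place of 4 genes were called with upper-quartile scaling, with a replicate block and without any 1 of the clone libraries. Of 64 receptor genes listed, 48 had a read and 23 were tested, of which 7 rose and 10 fell (median -0.11). Bdkrb2, the bradykinin B2 receptor, which signals through Gq and Gi, rose from 30.9 ± 7.00 CPM to 173 ± 19.6 and 151 ± 11.8 (2.38, edgeR adjusted p = 1.94e-08). Lpar1, a receptor for lysophosphatidic acid, fell from 13.5 ± 0.230 to 2.87 ± 0.0717 and 2.09 ± 0.456 CPM. The adenosine receptor Adora1 (-4.32) and the oestrogen-binding receptor Gper1 (-4.20) fell to under 0.23 CPM in both clones. Both rest on only 1 to 5 reads per clone library.

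**Figure D4:**
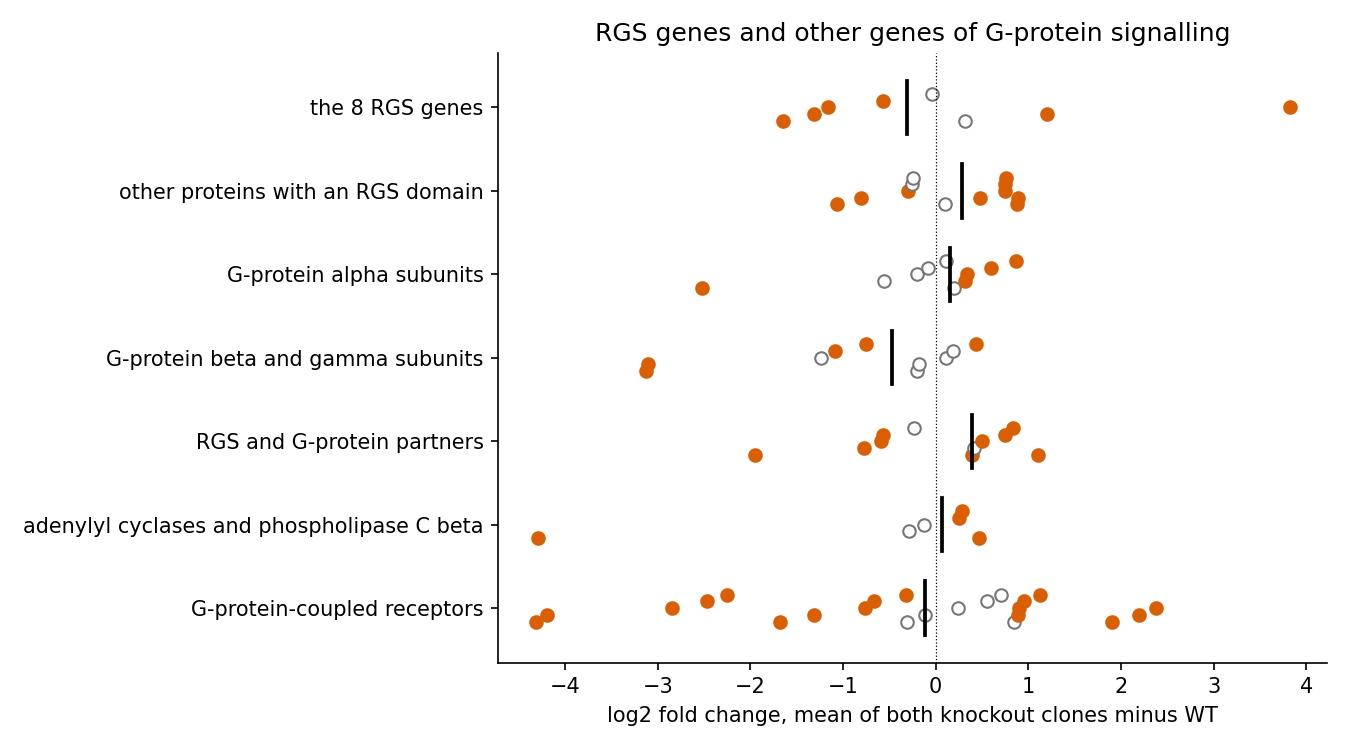
Log2 fold change of the mean of both knockout clones minus WT (horizontal axis) for the 8 RGS genes and 6 lists of G-protein signalling genes. Each point is a gene, filled where its adjusted p was under 0.05, and the black bar is the median of the tested genes of a list. Genes lie on both sides of 0 in all 7 rows, and the list medians run from -0.48 to 0.39.

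On the chromosome, neighbours were genes that start within 250 kb of either end of an RGS gene. Glul, glutamine synthetase, starts 160 kb from the start of Rgs16 and fell in the clones. It had 65.5 and 77.1 CPM in WT, 23.7 and 26.3 CPM in clone 1 and 35.3 and 34.8 CPM in clone 2 (mean log2 fold change -1.27, edgeR adjusted p = 3.42e-07). Around Rgs19, the other gene well above WT, 10 neighbours were tested, of which 2 rose and 1 fell (median log2 fold change 0.09). Around Rgs2, 3 were tested and 2 fell (-0.66), and around Rgs3, 9 were tested, of which 1 rose and 5 fell (-0.32). Around Rgs10, 9 were tested, of which 3 rose and 2 fell (0.17), and around Rgs14, 14 were tested, of which 5 rose and 3 fell (0.28). Around Rgs12, 3 were tested and not called (0.20), and around Rgs20, 5 were tested, of which 1 rose and 1 fell (-0.14). These counts stand beside 55.8% of all genes called in the same comparison.

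The tested genes whose pattern over the 6 libraries was most like that of Rgs16 were Mmp10, Mmp9, Aqp8, Il24 and Csf3, in that order. Likeness was the Euclidean distance between log2 CPM profiles (with a prior count of 2), each centred on its own mean. It ran from 0.355 for Mmp10 to 1.44 for Csf3. The place of Aqp8, which had no read in WT, depends on this prior count. Its fitted log2 fold changes against WT were 6.88 in clone 1 and 8.56 in clone 2. Mmp10, stromelysin 2, had 1.58 and 1.77 CPM in WT, 7.23 and 11.9 CPM in clone 1, and 52.0 and 46.7 CPM in clone 2. Like Rgs16, it was higher in replicate 2 than in replicate 1 of clone 1. Il24, a cytokine, had 5.72 and 4.66 CPM in WT, 18.5 and 22.0 CPM in clone 1, and 81.3 and 59.3 CPM in clone 2. Csf3, the granulocyte colony-stimulating factor gene, had 14.2 and 20.8, 41.9 and 41.5, and 351 and 311 CPM, and the water channel gene Aqp8 had no WT read, 18 and 17 reads in clone 1 and 49 and 51 reads in clone 2. With 3 groups of 2 libraries, many genes can share such a pattern, and nothing is read from the likeness.

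**Figure D5:**
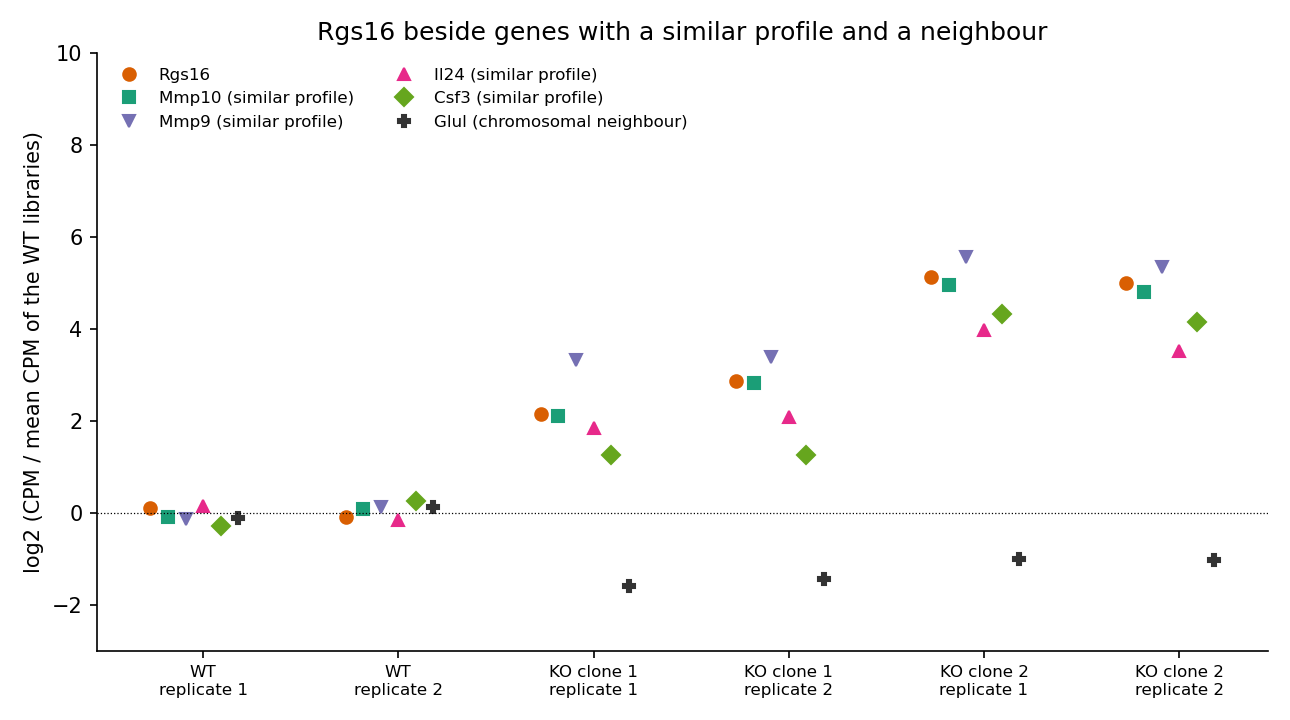
Level of Rgs16, of 4 genes with a similar profile and of its neighbour Glul in each library, as log2 of CPM over the mean of the WT libraries (vertical axis). Rgs16 and Mmp10 run close together in all 6 libraries, and Glul lies below 0 in all clone libraries. Aqp8 is left out because it had no read in WT.

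Some RGS genes, Rgs10, Rgs14 and Rgs19 among them, are known for their expression in blood cells. Of 10 leukocyte markers, 7 had a read and 2 were tested. The summed level of the list was 11.7 and 16.5 CPM in WT and 4.90 to 6.60 CPM in the clones, nearly all of it from Cd68 and Csf1r. Cd68, a macrophage marker also read in other cells, fell from 12.9 CPM in WT to 2.74 and 2.82 CPM in clones 1 and 2, and Csf1r rose from 1.14 to 2.22 and 3.12 CPM. Ptprc, the pan-leukocyte marker, had no read in WT and at most 2 reads in a clone library, and Cd3e, Ms4a1 and Adgre1 had none. Between 4 and 8 of the 10 markers were at 0 in each library. The fibroblast, endothelial and pericyte list summed to about 40.0 and 40.1 CPM in WT and 15.0 to 15.1 CPM in the clones, with Pdgfra as its 1 tested gene of 10, and Cdh5 and Kdr had no read in any library. Both sums were lower in the clones, and whether cells with these markers had a part in the RGS levels was not tested.

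RefSeq promoter windows of this length were at hand for 6 of the 8 genes, in 10 windows. The GC box core GGGCGG was in 8 of the 10 on either strand, beside 35.7% of 32851 promoter windows in the mouse table. A pair of the Rgs19 windows overlap and share 1 match, so the 17 matches lie at 16 positions. The 10 windows were 49.7% to 76.0% G and C (median 66.3%), against a median of 52.7% over all windows. The AP-1 site TGANTCA was in 1, an internal start of Rgs12, beside 7.81% of all windows. The E-box CACGTG was in 1, an Rgs19 window, beside 7.15%, and the full cAMP response element TGACGTCA was in none, beside 1.79%. A match describes letters in the window only.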

How the data were processed

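The authors aligned reads with STAR 2.6.0c to GRCm38 after FastQC, per the submitters' processing notes, and deposited counts of reads per gene, 1 table of 54146 Ensembl genes per library. The annotation they used is not given in the sources used here. Reverse-strand counts were used, because this column held 92.3% to 95.7% of stranded gene reads in these stranded libraries; summary lines without a gene were dropped. Symbols, coordinates and exon lengths came from GENCODE M21 (54079 IDs matched).

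Genes were filtered with filterByExpr, scaled by TMM and fitted with edgeR 4.0.16 (quasi-likelihood, robust, 1 term per group, all 6 libraries) in R 4.3.3, with Benjamini-Hochberg adjustment over all 13755 genes. The SE is the log2 fold change over the root of F. The fit was tested on a single set of simulated counts, in which a small share of genes was changed, between the clones only. There it recovered most changed genes with the right sign but made more false calls than the nominal share. More genes were called in the data, where the false share may differ. An adjusted p just under the threshold, as for Rgs3 between the clones and for Adcy7, therefore counts for less than its value. Alternatives were DESeq2 1.42.0, upper-quartile scaling, no count filter, unstranded counts, a replicate block and leaving out each library in turn. No 2 libraries of a group were copies (their chi-square over its degrees of freedom was 78.8 in WT, 17.7 in clone 1 and 25.0 in clone 2). The WT libraries thus differed most from each other, while the fit takes the spread of a gene as shared by all groups. Total depth limits low genes: 3 counts are 0.130 to 0.296 CPM, counting error only.

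The members, lists and tests were chosen with earlier results of these data known. Named genes were the 8 members, up to 4 called genes with the smallest adjusted p per list, the 5 profiles nearest to Rgs16 and its tested neighbours, of which 1 is not reported here. Rgs8, Rgs1 and the other unread Rgs genes are named from their counts. Gnai3, Ric8b and Arrb1 are named beside a close relative in the same list. No protein sequence was used here.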

Additional observations from a re-analysis of the deposited data

Results flagged for a closer look

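Rgs16 and Rgs3 had an adjusted p under 0.05 for the difference between the 2 knockout clones, which for Rgs16 draws on the clone 2 level behind its choice and is a description. Rgs16 was higher in clone 2 by 2.52 and Rgs3 lower by -0.53 on the log2 scale, in which the difference between the clones equals the difference between their changes against WT. The Rgs3 call was lost with DESeq2 and without any 1 of the 4 clone libraries. Reads on the strand opposite to Rgs16, where the noncoding gene Gm28513 overlaps it, came to 10 over the 4 knockout libraries and 0 in WT, beside 9338 and 155 reads on the strand of Rgs16. The opposite strand was not tested.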

How the results depend on the processing

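Of 19 called log2 fold changes of the RGS genes, over the 4 comparisons, 10 were called in the same direction under every alternative: Rgs16 in all 4, Rgs19 in the 3 against WT, Rgs2 in clone 2 and for the mean, and Rgs10 for the mean. No called value changed sign. Of 13 that were not called, 10 were not called under any alternative, and 5 of these changed sign. Of 11 counts of called genes, 6 stayed within 1.5 times. With DESeq2 the RGS genes called were 3 in clone 1 and 1 between the clones. Calls lost with DESeq2 were Rgs2 (-1.16), Rgs14 (-1.12) and Rgs20 (-1.46) in clone 1, Rgs14 in clone 2 (-1.18), Rgs14 (-1.15) and Rgs20 (-1.33) for the mean of both clones, and Rgs3 between the clones (-0.52), and it gave Rgs20 no adjusted p between the clones. Without the count filter Rgs20 lost its call in clone 1 (-1.37) and for the mean (-1.24), Rgs12 gained one for the mean (0.38), and 1 other Rgs gene was called. Upper-quartile scaling called 2 adenylyl cyclase and phospholipase C beta genes. Unstranded counts changed no call among these results.

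The replicate numbers gave no sign of pairing the libraries (correlations of the replicate differences -0.16, 0.08 and 0.005 between groups). With a replicate block Rgs20 lost its call in clone 1 (-1.46), 5 RGS genes were called in clone 1, and 2 genes in the adenylyl cyclase and phospholipase C beta list.

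With 1 library left out, the remaining library of that group is taken to spread as the others do. The number of RGS genes called ran from 3 to 5 in clone 1 and from 1 to 2 between the clones, that of alpha subunits from 3 to 6 and that of adenylyl cyclases and phospholipase C beta from 2 to 3. In clone 1 the log2 fold changes ran from -1.65 to -0.78 for Rgs2, -0.69 to -0.42 for Rgs10, 0.11 to 0.58 for Rgs12, -1.38 to -0.89 for Rgs14 and -2.39 to -0.87 for Rgs20. In clone 2 they ran from -0.66 to -0.53 for Rgs10, 0.11 to 0.58 for Rgs12 and -1.41 to -0.98 for Rgs14. For the mean of both clones they ran from 0.11 to 0.58 for Rgs12, -1.28 to -1.03 for Rgs14 and -1.79 to -1.02 for Rgs20, and between the clones from -0.76 to -0.33 for Rgs3. The cause of these changes was not tested. Depth limits Rgs2, Rgs14 and Rgs20, which rest on 3 to 27 reads per library.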
